A study of Mus musculus with 65 samples.

Results

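The 1420 regions described here are day 0 H3.3K27me3 peaks of mouse embryonic stem cells that carry no H3K27me3 peak in the same cells. Of 14776 filtered H3.3K27me3 peaks in replicate 1 on chromosomes 1 to 19 and X, 6219 overlapped a filtered peak of replicate 2 by at least 1 bp. Of those, 1420 (22.8%) overlapped no filtered peak of either day 0 H3K27me3 library, 3788 overlapped a peak of both and 1011 a peak of 1. They are called peaks without H3K27me3 below, and the 3788 are called peaks with both marks. The antibodies were a custom H3.3K27me3 antibody (Proteintech), H3K27me3 (Active Motif), H3.3 (Invitrogen RM190) and H3 (Abcam), each used in wild-type cells at days 0 and 6 in biological duplicates. Some titles of deposited tables call the H3 and H3K27me3 antibodies H3.1, and their variant specificity is not stated. At day 0 the cells were grown on gelatin with serum and leukaemia inhibitory factor, and days 3 and 6 are embryoid bodies grown without that factor and with 10 µM all-trans retinoic acid. RNA was sequenced in wild-type cells at days 0, 3 and 6 in 2019 (2 libraries each), and in H3.3K27A, H3.3A knockout and wild-type cells at days 6 and 0 in 2020 (2 libraries each, but 1 for wild type at day 0). Both edited lines were made with CRISPR/Cas9, and how many clones each line represents is not stated in the labels. For RNA the labels do not say that replicates are separate cultures, so the spread behind RNA p-values may be technical.

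Histone H3.3 is the variant that is placed on chromatin outside DNA replication, by HIRA at active genes and regulatory elements and by ATRX and DAXX at repeated sequence. Polycomb repressive complex 2 (PRC2) trimethylates lysine 27 of H3, and in embryonic stem cells H3K27me3 is known for covering CpG-rich promoters of silent developmental regulators. H3.3 and the replication-coupled H3.1 share the sequence around lysine 27 except for the residue at position 31, so a methylated H3.3 tail can in principle also be bound by a general H3K27me3 antibody.

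The sequences under the strongest peaks show what the peaks without H3K27me3 look like at base level. Each is the 300 bases centred on the summit of replicate 1, in the GRCm38 (mm10) build. The first is shown because it was the most enriched, at 6.51-fold over the genome mean, and CG is in capitals. Its sequence recurs elsewhere, and its median 31-base word occurs 21 times in the genome.
Peak 1 (chr14:4153415-4153714, plus strand): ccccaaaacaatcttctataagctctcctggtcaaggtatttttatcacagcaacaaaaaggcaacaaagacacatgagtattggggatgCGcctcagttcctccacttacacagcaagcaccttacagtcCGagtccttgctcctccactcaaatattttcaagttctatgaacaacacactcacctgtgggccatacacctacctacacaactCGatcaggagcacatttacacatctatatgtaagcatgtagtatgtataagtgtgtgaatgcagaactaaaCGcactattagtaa
The next pair, at 4.53-fold and 3.95-fold, is shown because both hold tandem copies of the same 15-base word, agcactgtgacacca, in capitals. Peak 2 has 7 copies and peak 3 has 4, although 300-base windows with this word make up 0.00314% of the genome (276 of 8779246 windows, both strands searched, reverse complement tggtgtcacagtgct). The word was picked after these sequences were seen. It was found in 2 of the 1420 summit windows without H3K27me3 and 3 of the 3788 with both marks.
Peak 2 (chr19:58113448-58113747, plus strand): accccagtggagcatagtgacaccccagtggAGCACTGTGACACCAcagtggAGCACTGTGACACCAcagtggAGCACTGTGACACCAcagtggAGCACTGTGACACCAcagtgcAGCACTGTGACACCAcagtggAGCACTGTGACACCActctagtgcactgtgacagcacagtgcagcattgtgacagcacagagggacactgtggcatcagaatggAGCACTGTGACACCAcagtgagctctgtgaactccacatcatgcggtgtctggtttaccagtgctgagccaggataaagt
Peak 3 (chr3:3001698-3001997, plus strand): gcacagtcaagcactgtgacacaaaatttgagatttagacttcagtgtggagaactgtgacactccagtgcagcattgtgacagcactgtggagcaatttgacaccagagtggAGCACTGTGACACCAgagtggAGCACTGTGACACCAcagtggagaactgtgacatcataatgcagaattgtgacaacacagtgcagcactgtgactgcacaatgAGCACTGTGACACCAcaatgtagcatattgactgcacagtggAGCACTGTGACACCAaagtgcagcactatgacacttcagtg
The first sequence below is from a peak without H3K27me3 (3.95-fold) and holds 1 CG. Its median 31-base word occurs 1 time in the genome. Peaks 2 and 3, with their tandem copies, have the same median, so this count does not show sequence free of repeats. In the 1 kb around its summit, 22.1% is soft-masked. The second is the summit of a strongly enriched peak with both marks (27.9-fold), which holds 6 CG. The second is repeat sequence too, with 97.3% of the 1 kb around its summit soft-masked and a median of 4 genome copies. CG is again in capitals.
Peak 4 (chr13:113726719-113727018, plus strand): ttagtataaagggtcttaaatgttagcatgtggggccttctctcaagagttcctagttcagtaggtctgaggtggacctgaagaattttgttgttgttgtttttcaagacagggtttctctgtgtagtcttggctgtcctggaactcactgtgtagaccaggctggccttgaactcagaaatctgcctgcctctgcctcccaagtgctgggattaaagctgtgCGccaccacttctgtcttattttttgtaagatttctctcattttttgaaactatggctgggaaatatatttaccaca
Peak with both marks (chr9:3026581-3026880, plus strand): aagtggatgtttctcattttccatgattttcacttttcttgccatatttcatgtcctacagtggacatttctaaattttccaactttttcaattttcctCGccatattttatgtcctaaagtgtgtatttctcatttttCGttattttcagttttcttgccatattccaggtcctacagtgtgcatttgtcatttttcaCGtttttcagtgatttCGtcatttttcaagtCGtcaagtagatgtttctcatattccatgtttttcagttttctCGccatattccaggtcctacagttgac

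These regions were chosen by the day 0 peak calls of H3.3K27me3 and H3K27me3, so their day 0 values for both marks are given as a description only. The 3 peaks closest to the boundary on the inside ended 28, 79 and 94 bp from an H3K27me3 peak, at chr15:66454874-66458563 in Lrrc6, chr3:135767153-135778812 and chr6:6894999-6899653. The 3 closest on the outside shared 8, 14 and 17 bp with an H3K27me3 peak, at chr18:46894280-46898755 in Lvrn, chr10:30857800-30865479 near Hey2 and chr9:20378295-20383820 in Zfp560. Most members lay farther away. The gap to the nearest day 0 H3K27me3 peak had a median of 30.2 kb, with quartiles of 11.3 and 73.6 kb and a maximum of 741 kb.

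The peaks without H3K27me3 were shorter and weaker than those with both marks. They had a median length of 6.97 kb (quartiles 4.62 and 10.5 kb, maximum 46.6 kb), against 14.5 kb for peaks with both marks and 9.94 kb for those outside chromosome 8. Their median fold enrichment in replicate 1, the authors' ratio of pileup to the genome-wide mean, was 2.21, against 2.56 for peaks with both marks. The lowest fold in the filtered list was 2.09, at a pileup of 17 reads. At that floor stood 498 of the 1420 peaks without H3K27me3 (35.1%) and 390 of the 3788 with both marks (10.3%). An enrichment of at least 3-fold was reached by 33 peaks without H3K27me3 (2.32%) and by 814 with both marks (21.5%). In replicate 2 the median fold was 2.37, which is the floor of that list, against 2.68 for peaks with both marks, and replicate 2 peaks covered 68.3% of the bases of peaks without H3K27me3 and 86.8% of those with both marks.

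**Figure D1:**
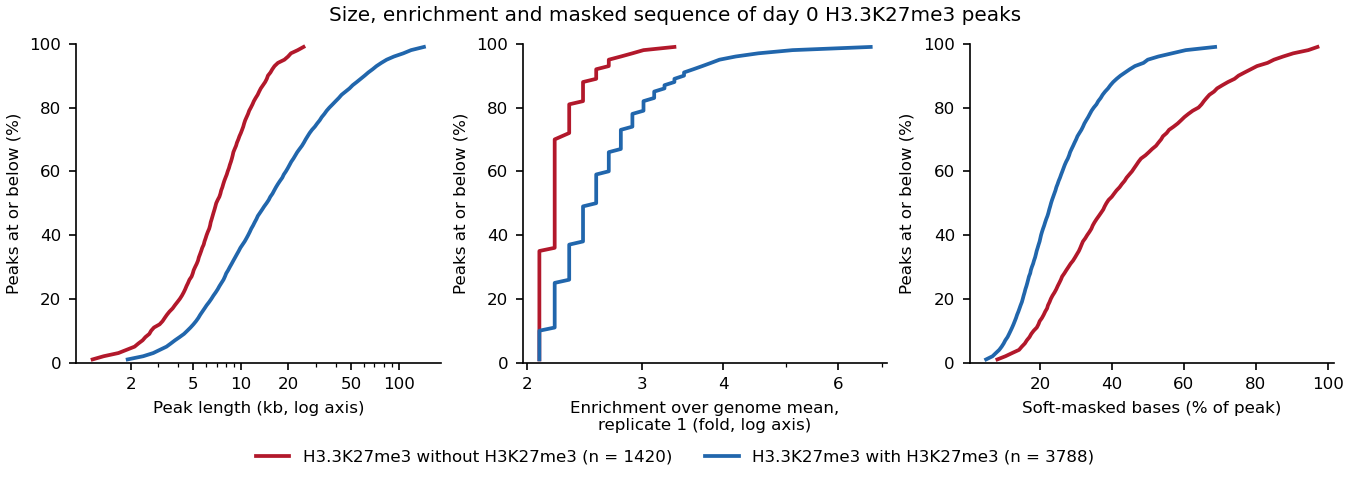
Cumulative share of peaks (percent, y axes) by length in kb, fold enrichment in H3.3K27me3 replicate 1 and percent of soft-masked bases (x axes), for 1420 peaks without H3K27me3 and 3788 peaks with both marks. The curves without H3K27me3 lie to the left for length and fold (medians 6.97 kb and 2.21-fold) and to the right for soft-masked sequence.

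Absence of H3K27me3 here means absence of a filtered peak, and the library depths bear on that. H3.3K27me3 replicate 1 held 81.2 M tags and a lowest filtered fold of 2.09, whereas the H3K27me3 libraries held 54.2 and 55.7 M tags and had lowest filtered folds of 2.36 and 2.31. The effect of this difference on which peaks lack H3K27me3 was not tested. The authors also deposited weaker calls that did not enter the filtered lists. H3K27me3 replicate 1 had such a call at 719 of the 1420 peaks (50.6%), with a fold of 1.89 to 2.202, and replicate 2 at 410 (28.9%), with a fold of 2.00 to 2.15. A weaker call was present in both libraries at 304 peaks (21.4%) and in neither at 595 (41.9%). The 595 peaks with no H3K27me3 call of any strength had a median length of 6.33 kb, against 7.71 kb for the 825 with a weaker call, and were more soft-masked (median 43.8% against 35.4%). They lay farther from a filtered H3K27me3 peak, with a median of 41.1 kb against 23.1 kb.

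Gene promoters were rare among the peaks without H3K27me3. A window of 1 kb either side of a gene start was touched by 149 of them (10.5%), against 2152 of those with both marks (56.8%) and 18.0% of the H3.3K27me3 peaks that replicate 2 did not share. Outside chromosome 8 the shares were 9.92% and 70.3%. Another 789 peaks without H3K27me3 (55.6%) touched no gene and no promoter, against 826 with both marks (21.8%). Introns alone held 233 (16.4%), against 231 (6.10%), and exons without a promoter held 249 (17.5%), against 579 (15.3%). The median distance to the nearest gene start was 24.7 kb, and 266 peaks (18.7%) lay over 100 kb away. By bases, exons made up 4.25% of the peaks without H3K27me3, 7.39% of those with both marks and 4.40% of the genome, and promoters made up 2.30%, 5.78% and 2.39%. The peaks without H3K27me3 thus held exon and promoter bases at shares close to those of the genome.

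Chromosomes differed in how many of these peaks they held. Chromosome 14 had 145 (1.16 per Mb), chromosome 1 had 141 and the X chromosome had 1, against 155, 160 and 4 peaks with both marks. Peaks of any antibody were also dense on chromosome 14 and sparse on X, at 6.05 to 13.2 and 0.0351 to 0.351 per Mb over the 16 ChIP libraries. Chromosome 8 had 90 peaks without H3K27me3 and 1442 with both marks. In all 16 libraries it was dense with peaks of every antibody, at 11.5 to 18.8 per Mb, against a median over the other chromosomes of 2.89 to 10.3 per Mb. Chromosome copy number was not measured here. The main overlaps with peaks of other libraries are therefore given with and without chromosome 8.

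The CpG content of peaks without H3K27me3 was near that of the genome and below that of peaks with both marks, and repeats were more frequent. Over all their bases, 43.8% were soft-masked (annotated as repeats in the genome file) in peaks without H3K27me3, against 29.0% in peaks with both marks and 34.3% of the genome as a whole. CG dinucleotides numbered 8.27 per kb in peaks without H3K27me3, 11.4 in peaks with both marks and 8.34 in the genome. In the 1 kb around the summit, more than 80% was soft-masked at 275 peaks without H3K27me3 (19.4%) and 159 with both marks (4.20%). Such windows with over 50% GC and an observed-to-expected CG ratio over 0.6, as in CpG islands, on which H3K27me3 is known to accumulate in stem cells, numbered 5 without H3K27me3 (0.352%) and 339 with both marks (8.95%). Sequence present in several genome copies was also more frequent. In 247 summit windows without H3K27me3 (17.4%) the median 31-base word occurred at least 2 times in the genome, against 205 with both marks (5.41%) and 819 of the unshared H3.3K27me3 peaks (9.57%). At least 10 copies were found for 84 peaks without H3K27me3 (5.92%) and 55 with both marks (1.45%), and peak 1 above belongs to that class. How the authors placed reads with several matches is not given in the sources used here, so enrichment at such sequence cannot be assigned to 1 copy.

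How many of these peaks held a called H3.3 peak depended on how many libraries had to show it. Peaks with both marks were longer (median 14.5 kb against 6.97 kb), so they had more bases in which to share 1 bp. The part of length in the overlaps at days 0 and 6 was not tested. At day 0, filtered H3.3 peaks of both replicates overlapped 491 peaks without H3K27me3 (34.6%), against 47.0% of peaks with both marks, and H3.3 peaks of at least 1 replicate overlapped 774 (54.5%). Outside chromosome 8 the shares were 32.8% and 35.6%. By single libraries, 43.6% and 45.5% of peaks without H3K27me3 overlapped an H3.3 peak. H3 peaks of both replicates overlapped 201 (14.2%), against 40.7%, and outside chromosome 8 they overlapped 10.6%, against 15.6%. By bases, H3.3 peaks of the 2 libraries covered 32.6% and 37.8% of the peaks without H3K27me3, against 12.8% and 16.1% of the genome. Neither H3.3 nor H3 was called in any of 4 day 0 libraries at 508 peaks without H3K27me3 (35.8%), against 21.0% of peaks with both marks. The 491 peaks with H3.3 were longer than the 646 with H3.3 in neither library (median 7.86 kb against 6.36 kb) and touched a promoter more often (15.1% against 6.97%).

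At day 6 the overlaps with K27me3 peaks were again counted in both libraries and in either, and again not matched for peak length. An H3.3K27me3 peak of both day 6 libraries overlapped 150 peaks without H3K27me3 (10.6%), against 41.8% of peaks with both marks, or 8.80% against 18.3% outside chromosome 8. Single day 6 libraries gave 34.2% and 19.8% and either library 617 peaks (43.5%), so the share depends strongly on asking for both, and these libraries held 33.6 and 37.8 M tags, fewer than at day 0. H3K27me3 peaks of both day 6 libraries overlapped 64 (4.51%), against 70.7%, or 2.56% against 60.7% outside chromosome 8, a gap that follows in part from choosing the peaks by H3K27me3 at day 0. Those of either library overlapped 267 peaks without H3K27me3 (18.8%). At 79 peaks (5.56%) H3.3K27me3 was present in both day 6 libraries and H3K27me3 in neither, against 17 peaks with both marks (0.449%). H3.3 peaks of both day 6 libraries overlapped 194 (13.7%), against 46.6%, and H3 peaks 96 (6.76%), against 39.9%. Outside chromosome 8 these shares were 10.4% against 26.6% for H3.3 and 3.68% against 13.2% for H3. At 499 peaks without H3K27me3 (35.1%), none of 8 day 6 libraries had a peak, against 115 with both marks (3.04%).

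**Figure D2:**
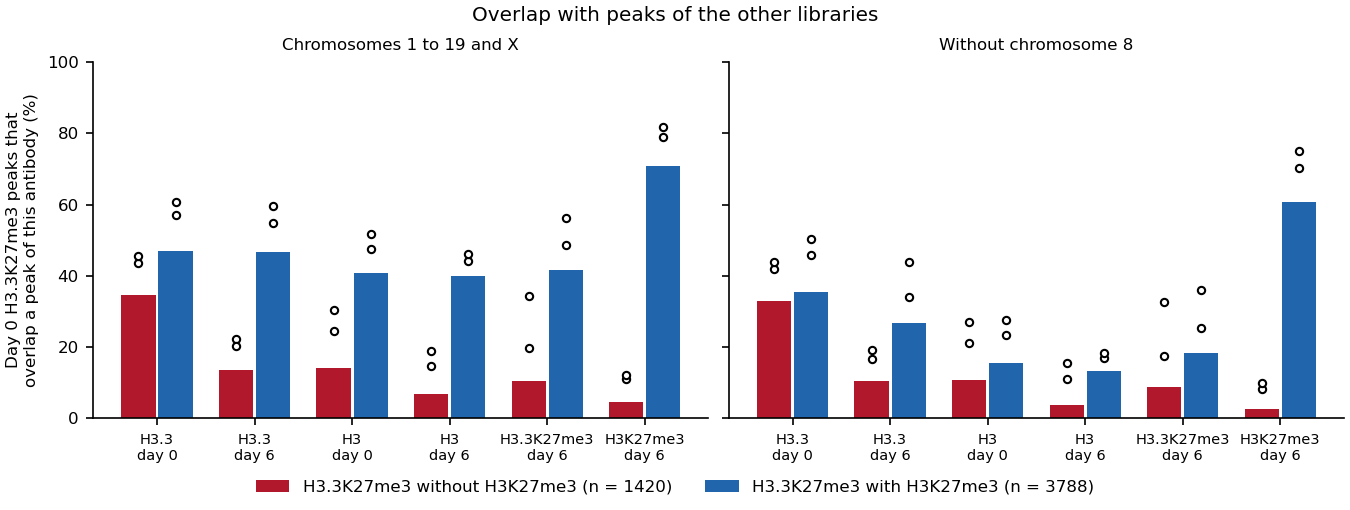
Share of peaks (percent, y axis) that overlap a filtered peak of H3.3, H3, H3.3K27me3 or H3K27me3 at the day named, for peaks without H3K27me3 and with both marks, over all chromosomes and without chromosome 8. The sets are not matched for peak length. Bars ask for both libraries and open points show each library; for H3.3 at day 0 the bars stand at 34.6% and 47.0% over all chromosomes, and at 32.8% and 35.6% without chromosome 8.

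The authors' deposited table of H3.3 regions measures the day 6 against day 0 difference in H3.3 with another antibody than those that chose the peaks. The choice still asked for H3.3K27me3, a mark on H3.3, at day 0 and for nothing at day 6. The difference in H3.3 is therefore not independent of the choice, whose part in it was not tested. It holds 592 regions at 628 of the peaks without H3K27me3. In the authors' deposited table, 67.6% of these (400 regions) were lower at day 6 at a false discovery rate below 0.05, against 36.4% of all 14806 regions, and 29 (4.90%) were higher, against 13.9%. Regions at peaks with both marks in the authors' deposited table were lower in 26.6% and higher in 17.2%, and outside chromosome 8 in 492 of 1229 and in 127 (10.3%). Outside chromosome 8 the share lower was 375 of 538 (69.7%), against 38.8% of all regions. Long regions were lower more often in the whole table, and the regions at peaks without H3K27me3 were long, with a median of 30.0 kb against 19.8 kb. Within widths below 10 kb the share lower was 67.9%, against 28.4% of all regions of that width, and at 40 kb or more it was 70.8%, against 55.3%. The size of the difference was modest. The median log2 difference of day 0 minus day 6 was 0.31, so lower at day 6, against 0.12 for all regions, and the scaled reads per kb had medians of 27.5 and 26.3 at day 6 and of 33.9 and 33.7 at day 0. For H3, 96 of 351 regions in the authors' deposited table (27.4%) were lower at day 6, against 16.6% of all 6609, and 23 (6.55%) were higher, against 9.24%. Outside chromosome 8, 22.4% of the H3 regions were lower, against 16.2%. The H3 regions at these peaks were also wide, with a median of 24.2 kb against 18.1 kb. Below 10 kb, 2.86% of them were lower, against 3.62% of all H3 regions of that width. At 10 to 20 kb the shares were 5.94% against 9.53%. At 20 to 40 kb they were 29.1% against 23.4%, and at 40 kb or more 52.7% against 35.9%. The higher H3 share was thus seen only in regions of 20 kb or more. Regions of the 2 tables differ in number and width, and the difference between the H3.3 and H3 shares was not tested.

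**Figure D3:**
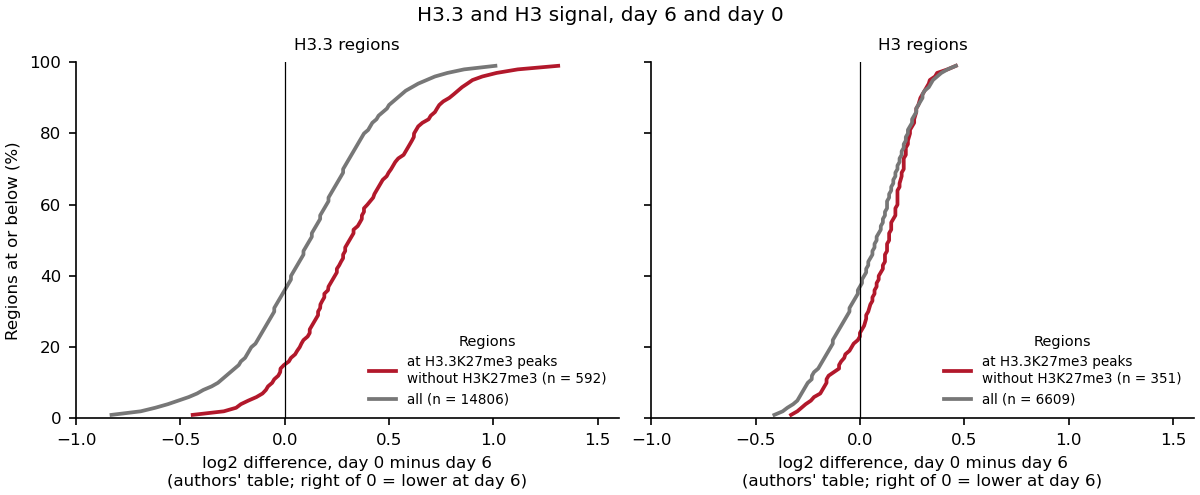
Cumulative share of the authors' regions (percent, y axis) by their log2 difference of day 0 minus day 6 (x axis; positive is lower at day 6), for H3.3 (592 regions at peaks without H3K27me3, 14806 in all) and H3 (351 and 6609). The H3.3 curve at peaks without H3K27me3 is shifted to the right, with a median of 0.31 against 0.12 for all regions.

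The regions with the largest H3.3 differences at peaks without H3K27me3 were these. The region chr7:34035458-34037946, listed with Scgb1b27, a secretoglobin gene, had 41.6 and 58.6 scaled reads at day 6 and 185 and 174 at day 0 in the authors' deposited table (log2 difference 1.84, false discovery rate 1.32e-13). At chr7:44178198-44181693, near the kallikrein gene Klk1b24, it lists 71.8 and 75.2 at day 6 against 199 and 211 at day 0. At chr2:20175917-20180719, listed with Etl4, it lists 113 and 114 at day 6 against 280 and 319 at day 0. In these 3 regions both day 6 libraries were below both day 0 libraries. The largest difference the other way was at chr9:14213319-14226552, listed with Sesn3 (438 and 428 at day 6, 275 and 286 at day 0, log2 difference -0.63).

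Single peaks show the range of the set. The most enriched, chr14:4145978-4153905, lay in Gm32966 and reached 6.51-fold in replicate 1 but 2.53-fold in replicate 2. At chr9:56260330-56262435, within Peak1, a pseudokinase gene, the folds were 4.53 and 3.95, with H3.3 and H3 peaks in both day 0 libraries and no H3K27me3 call of any strength. The peak chr19:58113273-58114320, in Atrnl1, holds the sequence of peak 2 above and reached 4.53-fold and 5.53-fold. The longest peaks were weak. At chr14:67586905-67633527 a stretch of 46.6 kb stood at the floor of 2.09-fold. The peak of 44.7 kb at chr17:17954022-17998752 covered Fpr3. That of 36.1 kb at chr8:111011963-111048111 covered the starts of Aars and Ddx19b, an RNA helicase gene, and carried H3.3 and H3 in both day 0 libraries.

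Few annotated genes had a start within 1 kb of a peak without H3K27me3. There were 178 such genes (107 protein-coding, 71 long noncoding), or 0.522% of 34128 annotated genes, against 9.60% for peaks with both marks. The choice of the peaks leaves out places with an H3K27me3 peak at day 0, so genes covered by H3K27me3 could hardly appear among them, and at 0.522% of all genes a count of 0 in lists of these sizes is near the background. Nothing is read from the counts of 0 that follow. None of 39 HOX genes was at a peak without H3K27me3, and all 39 were at a peak with both marks. The counts were 0 of 36 other homeobox genes (33 with both marks), 0 of 26 neural progenitor genes (21), 0 of 22 mesoderm genes (13), 0 of 20 endoderm genes (10), 0 of 69 protocadherins (60) and 0 of 19 Wnt genes (12). None of 25 pluripotency genes was at a peak without H3K27me3, and 3 were at a peak with both marks. The listed genes that were included are Stmn2, which regulates neuronal microtubules, the imprinted noncoding RNA Meg3, the ribosomal protein gene Rps15a, the zinc finger genes Zfp160, Zfp276 and Zfp280d, 7 of 1109 olfactory receptor genes and 2 of 350 vomeronasal receptor genes. These lists were chosen with results of these data known, and the counts are descriptive. Over whole gene bodies, zinc finger genes were more often touched: 27 of 403 (6.70%) overlapped a peak without H3K27me3, against 652 of all 34128 genes (1.91%), while for peaks with both marks the shares were 12.4% and 11.4%. For 13 zinc finger genes (3.23%) a peak lay within 1 kb of the 3′ end and none within 1 kb of the start, against 155 of all genes (0.454%). Such a peak need not touch the gene itself, and cover of the 3′ exons was not counted. The 3′ exons of zinc finger genes encode arrays of similar fingers.

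The promoters themselves ranged from CpG-poor to CpG-rich. In 300 bases around the start, 140 genes at peaks without H3K27me3 had a median of 6 CG, against 16 for genes at peaks with both marks and 7 for all 26794 with a sequence. The 83 protein-coding genes had a median of 11. At least 10 CG were found in 60 of the 140 (42.9%), in 64.5% of those with both marks and in 44.3% of all. These promoters come from the RefSeq promoter table for GRCm38, whose start can differ from the annotated start that set the distance to the peak. A CpG-poor example is shown as the 250 bases before the gene start, with CG in capitals. It belongs to Fpr3, a formyl peptide receptor gene, which lies in the second longest peak without H3K27me3 and has 1 CG in this stretch.
Fpr3 (chr17:17970208-17970457, plus strand): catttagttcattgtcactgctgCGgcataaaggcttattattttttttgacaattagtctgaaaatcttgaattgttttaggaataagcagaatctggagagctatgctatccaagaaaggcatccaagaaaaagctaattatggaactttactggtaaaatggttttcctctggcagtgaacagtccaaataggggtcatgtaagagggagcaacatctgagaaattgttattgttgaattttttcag

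RNA of these genes ranged from abundant to absent, as it did over all genes. Of the 178 genes, 112 are in the count table. At day 0 in 2019, 50 of them (44.6%) had at least 10 CPM in each library, against 20.4% and 20.8% of genes at peaks with both marks and 36.7% and 36.9% of all genes. Outside chromosome 8, where peaks of every antibody were dense, 32 of 89 (36.0%) did, close to all genes. Of the 98 protein-coding genes, 48 averaged at least 10 CPM and 24 at least 100 CPM, and of the 14 noncoding genes 2 and 1 did. Per kb of exon the median was 1.10 and 0.992 CPM at peaks without H3K27me3, against 0.182 and 0.172 at peaks with both marks and 0.387 and 0.379 over all genes. Without chromosome 8 the medians at peaks without H3K27me3 were 0.151 and 0.205. Among the abundant were Aars, which encodes alanyl-tRNA synthetase (1304 and 1176 CPM), Cox4i1, a subunit of cytochrome c oxidase, Vdac1, a channel of the outer mitochondrial membrane, and Slc3a2 (486 and 474 CPM), the heavy chain of an amino acid transporter. Fpr3 had 0.161 and 0 CPM, and Olfr74, Vmn1r238 and Vmn1r191 had 0 counts in all 17 libraries. Reads of receptor family members and of ribosomal protein genes with pseudogene copies may be shared, and their values are uncertain.

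During differentiation these genes moved in both directions. Cells left the stem cell state in this series: 6 stem cell markers summed to 4793 to 5098 CPM at day 0, 545 to 546 at day 3 and 243 to 251 at day 6. Of 66 genes at peaks without H3K27me3 that passed the count filter, 24 (36.4%) were higher at day 6 than day 0 in 2019, where 41.4% of all 13593 tested genes were called higher, and 28 (42.4%) were lower, where 36.6% of all were called lower (edgeR quasi-likelihood test, Benjamini-Hochberg adjusted p below 0.05). The shares were near the background in both directions. The median log2 change was -0.18, against 0.09 for all genes and 1.90 for genes at peaks with both marks, of which 67.6% were higher. At day 3 against day 0, 24 (36.4%) were higher and 28 (42.4%) lower, against backgrounds of 37.6% and 33.8%. In the 2020 wild type, 18 of 70 (25.7%) were higher at day 6, against 36.0% of all tested genes, and 27 (38.6%) lower, against 34.8%. Day 0 of 2020 has 1 library, which was assumed to vary like the other groups. In bulk RNA, fewer expressing cells and less RNA per cell cannot be told apart.

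Among the genes that rose, Itga2, which encodes integrin α2, had 0.321 and 0 CPM at day 0, 7.45 and 6.68 at day 3 and 3.10 and 2.74 at day 6 (day 6 against day 0, log2 4.50 ± 0.66 SE, edgeR adjusted p 3.6e-05, and 3.14 to 8.16 with 1 library left out). E130307A14Rik, a long noncoding RNA, had 0.643 and 1.31 CPM at day 0, 7.69 and 9.23 at day 3 and 11.6 and 9.23 at day 6 (log2 3.29 ± 0.31, edgeR adjusted p 6.02e-07). In both, every day 3 and day 6 library was above every day 0 library. Sned1, an extracellular matrix protein gene, was below day 0 at day 3 and above it at day 6, with 9.16 and 7.97 CPM at day 0, 1.13 and 1.95 at day 3 and 49.0 and 50.5 at day 6 (log2 2.55 ± 0.15, edgeR adjusted p 4.83e-09). Homer3, a synaptic scaffold gene, had 56.1 and 56.0 CPM at day 0, 116 and 135 at day 3 and 162 and 165 at day 6 (log2 1.54 ± 0.09, edgeR adjusted p 3.67e-09). Meg3 stood at 16.7 and 17.9 CPM at day 0, 26.95 and 26.1 at day 3 and 51.2 and 39.4 at day 6 (log2 1.39 ± 0.14, edgeR adjusted p 1e-06). Gm8300 (log2 1.93) and the aldo-keto reductase gene Akr1c13 (log2 2.29) also rose from low counts, and the call of Akr1c13 was lost without day 6 replicate 2 (edgeR adjusted p 0.104). Of the zinc finger genes, Zfp160 rose by 1.00, Zfp280d by 0.66 and Zfp276 by 0.48 on the log2 scale. The call of Zfp276 was lost without day 0 replicate 2.

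Among the genes that fell, Sgk1, a serum- and glucocorticoid-regulated kinase gene, had 426 and 412 CPM at day 0, 106 and 116 at day 3 and 25.8 and 27.5 at day 6 (log2 -3.98 ± 0.08, edgeR adjusted p 7.67e-13). Ciart, a repressor in the circadian clock, had 14.5 and 17.7 CPM at day 0, 0.809 and 1.65 at day 3 and 2.14 and 3.38 at day 6 (log2 -2.58 ± 0.27). Bcl6b, a zinc finger repressor gene, had 18.96 and 23.3 CPM at day 0, 22.7 and 26.6 at day 3 and 3.32 and 4.02 at day 6 (log2 -2.55 ± 0.19, edgeR adjusted p 4.84e-08). Sgk1 and Ciart were low at day 3 in both libraries, whereas Bcl6b had values near those of day 0. Slc3a2 had 486 and 474 CPM at day 0, 187 and 181 at day 3 and 134 and 128 at day 6 (log2 -1.87 ± 0.07). Aars had 1304 and 1176 CPM at day 0, 446 and 444 at day 3 and 380 and 371 at day 6 (log2 -1.72 ± 0.07). Stmn2 had 223 and 255 CPM at day 0, 9.47 and 11.7 at day 3 and 90.5 and 71.1 at day 6 (log2 -1.57 ± 0.11, edgeR adjusted p 3.72e-08). Vdac1 (log2 -1.45), Ddx19b (-1.37), Cox4i1 (-0.77), the kinetochore gene Cenpf (-0.76) and Rps15a (-0.67) also fell. In the 2020 wild type Sgk1 (log2 -3.66), Ciart (-4.60), Bcl6b (-2.95), Slc3a2 (-2.16) and Aars (-2.17) fell as well, whereas Sned1 had a log2 difference of -0.16 (edgeR adjusted p 0.831).

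**Figure D4:**
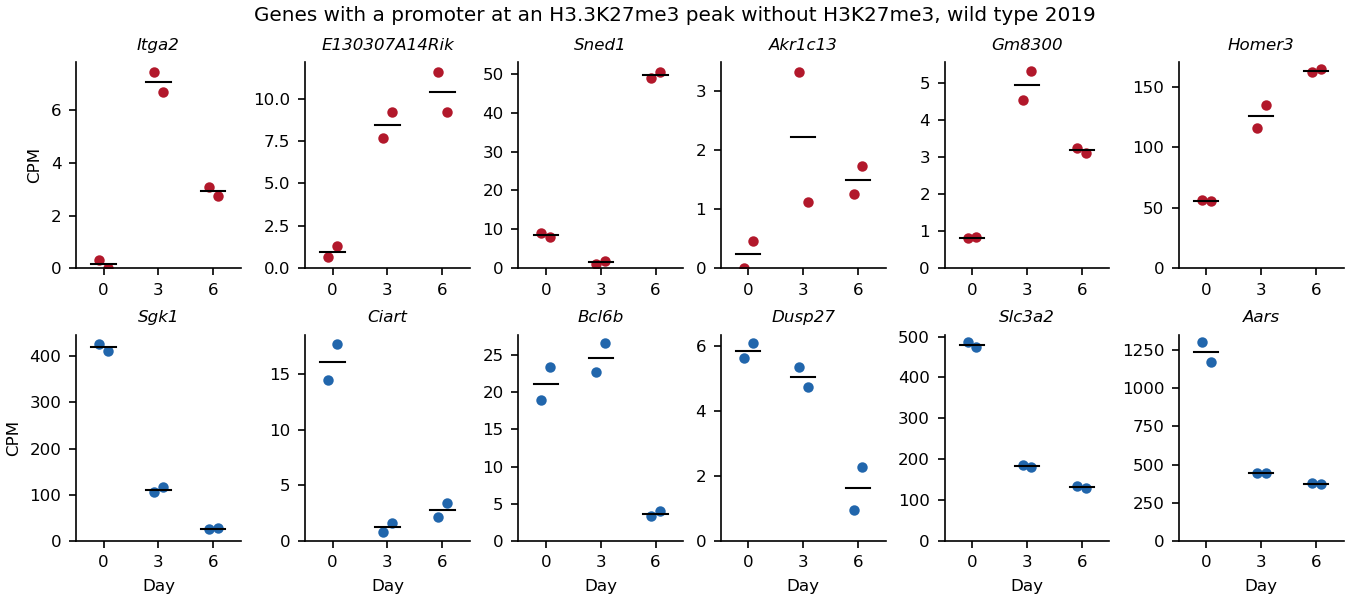
CPM (y axes, 1 panel per gene) at days 0, 3 and 6 in the 2019 wild-type libraries for 6 genes at peaks without H3K27me3 that rose most and 6 that fell most from day 0 to day 6. Points are single libraries and bars are means of 2; Sgk1 is lower at each later day, Bcl6b is near its day 0 values at day 3, and Sned1 is lowest at day 3.

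The edited lines were checked first by the H3.3 genes. H3f3a had 20.4 to 24.2 CPM in H3.3K27A and knockout libraries and 114 to 188 CPM in wild type, so its RNA was low in both lines, and which gene carries the K27A change is not stated in the labels. H3f3b, the other H3.3 gene, had 499 to 599 CPM in H3.3K27A, 872 to 1134 in the knockout and 797 to 894 in the 2020 wild type, so among the 2020 libraries it was lowest in H3.3K27A, and the part of this in the results below was not tested. The knockout replicates at day 6 differed most from each other (SD of log2 differences 0.562, against 0.299 to 0.454 in other groups), and 5 primitive endoderm markers summed to 603 and 672 CPM in H3.3K27A, 990 and 1783 in the knockout and 670 and 766 in wild type at day 6. Their part in the results below was not tested. No ChIP was analysed in these lines, so whether the peaks exist there is unknown.

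H3.3K27A and knockout cells differed at day 6 in about as many genes near these peaks as elsewhere. Of 70 tested genes, 9 (12.9%) were higher in H3.3K27A than in the knockout, against a background of 9.03%, and 8 (11.4%) were lower, against 9.64%. These counts depended on single libraries, and leaving out 1 of the 4 gave 2 to 13 higher and 1 to 19 lower. Shares of all genes called in those fits are not given here. At day 0, 1 of 70 was higher, against 0.461% of all genes, and 0 were lower, against 0.806%. At an unadjusted p below 0.05 edgeR gave 6 higher and 5 lower, and DESeq2 gave 3 higher and 0 lower after adjustment. No share over all genes is given for these settings, so nothing is read from those counts. The 1 gene called by edgeR after adjustment, Cpt1a, encodes the carnitine palmitoyltransferase of the outer mitochondrial membrane. Its log2 difference at day 0 was 0.64 ± 0.09 (edgeR adjusted p 0.00946), and that call was lost whichever of the 4 libraries was left out (edgeR adjusted p 0.0716 to 0.136). At day 6 Cpt1a had 144 and 153 CPM in H3.3K27A and 103 and 91.7 in the knockout, against 105 and 110 in wild type (K27A against knockout, log2 0.61 ± 0.09, edgeR adjusted p 0.00155).

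Magi3, a membrane-associated scaffold gene, had the lowest adjusted p of these genes. It had 166 and 166 CPM in H3.3K27A and 91.7 and 96.1 in the knockout at day 6, against 109 and 112 in wild type (K27A against knockout, log2 0.82 ± 0.07, edgeR adjusted p 0.00012). Its day 6 against day 0 change was log2 2.85 in H3.3K27A and 1.88 in the knockout, and the difference of 0.97 ± 0.10 had an adjusted p of 0.00144 by edgeR and remained called whichever of the 8 libraries was left out. Sgk1 was lower in H3.3K27A, with 39.6 and 42.5 CPM against 86.6 and 65.3 in the knockout and 39.0 and 42.4 in wild type (K27A against knockout, log2 -0.89 ± 0.12, edgeR adjusted p 0.00148). The calls of Magi3, Cpt1a and Sgk1 were held whichever of the 4 libraries was left out. Lgals9, which encodes galectin-9, had 52.9 and 64.5 CPM in H3.3K27A and 257 and 114 in the knockout, against 77.2 and 91.8 in wild type (log2 -1.66 ± 0.30, edgeR adjusted p 0.00519), and its 2 knockout replicates were far apart. Il3ra, the interleukin-3 receptor α gene, was lower in H3.3K27A by log2 -0.67 ± 0.15 (edgeR adjusted p 0.016). Ciart, Rev3l (the catalytic subunit of DNA polymerase zeta), Mtx2, Tomm20, Klhl24, Lysmd2 and Svil were also higher in H3.3K27A, and Prosc, Eef1e1, Chchd6, Fsip1 and Atp13a1 were lower. Apart from Magi3, Cpt1a and Sgk1, each of these day 6 calls, those of Lgals9 and Il3ra included, was lost in at least 1 of the 4 fits without a library. Lgals9, Il3ra and Bcl6b also passed the test of a different day 6 against day 0 change between the lines, with Magi3 the 1 gene of 70 higher in H3.3K27A, against a background of 3.23%, and these the 3 lower, against 2.16%. Day 6 against day 0, 20 of 70 genes rose and 32 fell in H3.3K27A, against backgrounds of 39.5% and 37.2%, and 23 rose and 29 fell in the knockout, against 40.8% and 36.4%. Svil, an actin-binding protein gene, rested on values below 1 CPM at day 6, and its call survived in 1 of 4 fits without a library.

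Against wild type, Meg3 stood apart in both lines. At day 6 it had 6.49 and 7.70 CPM in H3.3K27A and 3.25 and 7.80 in the knockout, against 56.7 and 64.2 in wild type (log2 -3.09 ± 0.28, edgeR adjusted p 0.00187, for H3.3K27A, and -3.43 ± 0.29, edgeR adjusted p 0.000641, for the knockout). At day 0 Meg3 had 8.73 and 8.05 CPM in H3.3K27A and 7.79 and 7.85 in the knockout, against 49.8 in the 1 wild-type library. The edited and wild-type libraries did not overlap at either day. The call in the knockout was held whichever of the 4 libraries was left out, and that in H3.3K27A was lost without H3.3K27A replicate 1 (edgeR adjusted p 0.0693). Meg3 is read from 1 parental allele and is known to vary between cultures of stem cells, and a difference between lines that predates editing cannot be told apart from one due to it. In H3.3K27A, 3 of 70 genes (Ciart, Magi3 and Cpt1a) were higher than wild type, against a background of 1.13%, and Meg3 was the 1 lower, against 0.908%. Each of the 3 calls was lost whichever of the 4 libraries was left out. In the knockout 8 genes (11.4%) were higher, against 6.98%, and 3 (4.29%), Meg3, Svil and Rev3l, were lower, against 4.42%. The number higher in the knockout depended strongly on which library was left out. Shares of all genes called in the same fits are not given here, so this is not read as a trait of these genes.

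**Figure D5:**
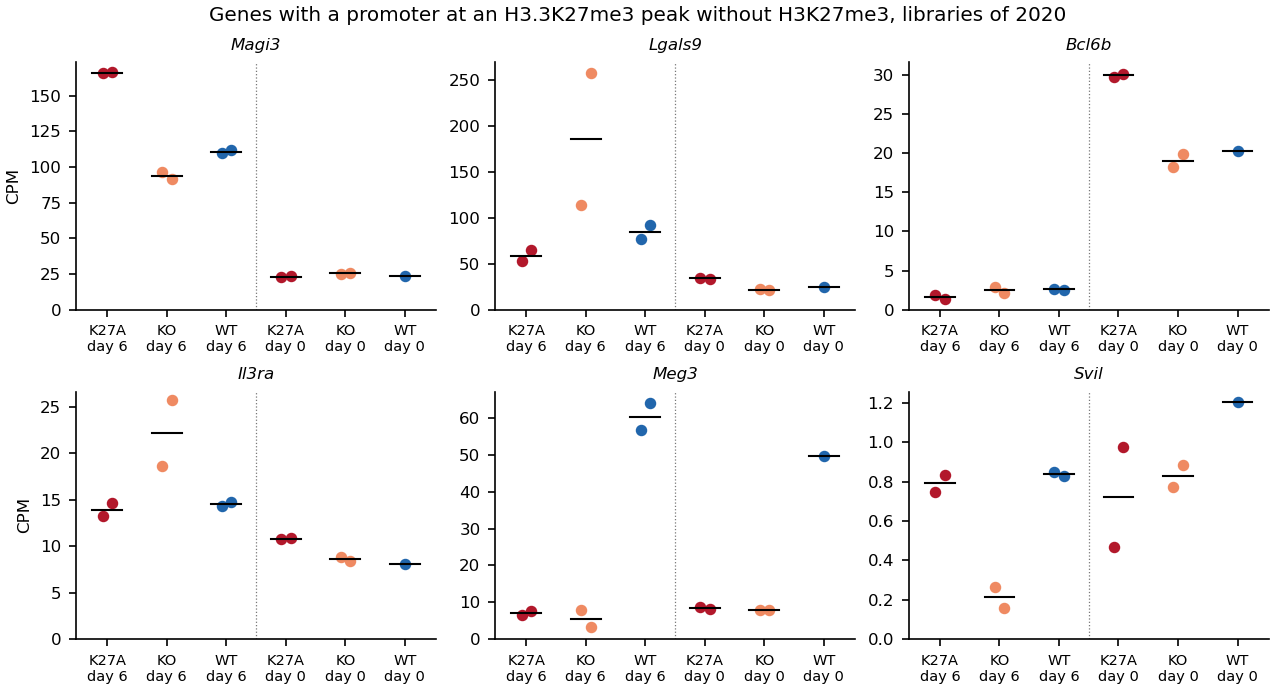
CPM (y axes, 1 panel per gene) of Magi3, Lgals9, Bcl6b, Il3ra, Meg3 and Svil in H3.3K27A, H3.3A knockout and wild-type libraries of 2020, at day 6 and day 0. Points are single libraries and bars are group means, with 1 wild-type library at day 0; Meg3 is at 3.25 to 8.73 CPM in the edited lines and 49.8 to 64.2 in wild type.

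Genes that a peak without H3K27me3 touched only away from their start numbered 490, of which 395 are in the count table. At day 6, 48 of 295 tested (16.3%) were higher in H3.3K27A than in the knockout and 15 (5.08%) were lower, against the backgrounds of 9.03% and 9.64%. These host genes were long, with a median of 86.6 kb against 22.3 kb for all tested genes. Of the 2342 tested genes at least as long as that median, 16.9% were higher and 8.45% lower. Between the knockout and wild type, 14 host genes (4.75%) were higher and 24 (8.14%) lower, against 5.12% and 8.84% of the long genes. The long genes had a median of 149 kb, so they were not matched to the host genes in length.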

How the data were processed

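ChIP-seq and RNA-seq of mouse embryonic stem cells were read from the deposited tables. Reads were aligned to mm10 with STAR 2.5.2a, and HTSeq, MACS2, DiffBind, deepTools and DESeq2 are also named, per the submitters' processing notes. Peaks were called by the authors with MACS2 2.2.6 without a control library, with a p cutoff of 0.01, a maximum gap of 5000 bp, a minimum length of 1000 bp and 1 tag kept per position, per the file headers. Each deposited call holds its pileup signal, its −log10 p and a fold, the ratio of pileup to background. How the filtered lists were made is not given in the sources used here. In each library they hold 99.8% to 99.9% of the calls at or above their own lowest fold. The 3 runs of a ChIP library were joined by the authors, and the 16 libraries held 33.6 to 81.6 M tags and 9590 to 26198 filtered peaks. The authors' deposited differential tables give scaled read signals per region with a false discovery rate, a p-value and the log2 difference, which runs as day 0 minus day 6. Such a table for H3.3K27me3 was not analysed here.

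RNA values are the deposited whole read counts per gene, 6.97 to 22.0 M per library. The HTSeq summary entries, left out here, corresponded to 11.3% to 43.3% of reads without a feature and 7.40% to 11.9% ambiguous reads. The kit was directional per the labels, but whether counting used strand is not given, so overlapping antisense genes cannot be separated. Counts were fitted in R 4.3.3 with edgeR 4.0.16 (filterByExpr, TMM, quasi-likelihood F-test), 2019 and 2020 separately, with Benjamini-Hochberg adjustment over all tested genes and a threshold of 0.05. Standard errors are approximate. CPM were computed with TMM-scaled library sizes. With 2 libraries a group the smallest exact permutation p is 0.333, and tests therefore rest on the spread shared by all groups of a fit.

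Peaks on chromosomes 1 to 19 and X were intersected with a minimum overlap of 1 bp. Gene starts and exons are those of the RefSeq annotation of GRCm38, the same assembly as mm10, and a promoter is 1 kb either side of a start. Genome copies were counted for each 31-base word of the 300 bases at the summit, on both strands. The counts cover only the assembled sequence of chromosomes 1 to 19 and X, so copies missing from the assembly are not included. The sequence of 1 strongly enriched peak is not reported here. Shares over peaks are descriptions without a test. Alternatives were DESeq2 1.42.0, no count filter, a replicate block, single libraries left out, other overlap, promoter and peak rules and, chosen after seeing the data, the omission of chromosome 8 and settings for the authors' tables. Tables were handled with Python 3.11.15, numpy 2.4.6 and pandas 2.3.3, figures were drawn with matplotlib 3.10.9, and the count fits were tested on simulated data. Genes named are those at the 10 most enriched, 5 longest and 3 nearest-threshold peaks, those on the lists, and the largest changes of each contrast; others were chosen after their values were seen. The members and lists were chosen with earlier results of these data known.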

Additional observations from a re-analysis of the deposited data

Results flagged for a closer look

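Of the genes at peaks without H3K27me3, 4 had a day 6 against day 0 change that differed between H3.3K27A and the knockout by a test of the difference itself (edgeR interaction, adjusted over 14760 genes; 3.23% of these were higher and 2.16% lower). Magi3 changed by log2 2.85 in H3.3K27A and 1.88 in the knockout, a difference of 0.97 (edgeR adjusted p 0.00144), called in 8 of 8 fits without a library. Lgals9 changed by 0.79 in H3.3K27A and 3.10 in the knockout, a difference of -2.31 (edgeR adjusted p 0.0189). Bcl6b changed by -4.18 and Il3ra by 0.36 in H3.3K27A, against -2.92 and 1.37 in the knockout, differences of -1.25 (edgeR adjusted p 0.0257) and -1.003 (edgeR adjusted p 0.0386). Each of these last 3 calls was held in 2 of 8 fits without a library. The primitive endoderm marker sums were higher in the knockout (990 and 1783 CPM at day 6) than in H3.3K27A (603 and 672 CPM), as they were at day 0 (129 and 134 in the knockout, 28.1 and 32.8 in H3.3K27A), and their part in these results was not tested.

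Both other cases concern opposite changes in separately fitted series, and the difference was not tested. Gm8300 differed between day 6 and day 0 by log2 -1.22 in H3.3K27A and -1.09 in the knockout, and by 1.93 in the 2019 wild type. Sned1 differed by -1.66 in H3.3K27A and by 2.55 in the 2019 wild type. In the 2020 wild type the log2 differences were -0.47 for Gm8300 and -0.16 for Sned1, neither past the threshold (edgeR adjusted p 0.454 and 0.831). The series also differed in markers of other cells: 5 fibroblast and mesenchyme markers summed at day 0 to 385 to 414 CPM in H3.3K27A, 404 to 534 in the knockout and 357 in the wild type of 2020, against 4.12 to 6.59 in 2019, and 6 neural markers at day 6 to 187 to 307 in the 2020 wild type, against 1005 to 1156 in 2019. Their part in these differences was not tested.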

How the results depend on the processing

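Of 135 alternatives that left out no library, 104 gave values within tolerance and 31 did not. Of 72 that left out a library, 37 did and 35 did not. The tolerance was 1.5 times for counts, and the SD between libraries or the 95% binomial interval for shares. Requiring at least the median fold gave 922 peaks without H3K27me3, and using all deposited H3K27me3 calls gave 595. The H3.3 share at day 0 was 38.6% with the median fold required, 32.8% without chromosome 8 and 25% where 50% of the peak had to be covered, where the H3 share was 8.87%. The H3K27me3 share at day 6 was 6.84% where 50% of the shorter peak had to be shared, 2.56% without chromosome 8 and 2.18% with 50% of the peak covered. The promoter share was 8.45% for a start inside the peak and 18.8% for 5 kb. Taking the nearest gene within 50 kb gave a larger set, with 565 genes in the count table against 112 with a promoter. How many of the 565 were tested is not given here, so the counts are not set beside the background. The counts were 106 higher and 112 lower at day 3, 120 and 129 at day 6 in 2019, and 109 and 130 in 2020. For H3.3K27A against the knockout there was 1 lower at day 0, and 37 higher and 26 lower at day 6. Against wild type, 7 were higher in H3.3K27A, and 24 were higher and 15 lower in the knockout. Among genes with a promoter at a peak, H3.3K27A against the knockout at day 0 gave 3 higher with DESeq2 and 2 with no count filter. No share over all genes is given for these settings. With replicate 2 peaks as the set, 0 genes were lower in H3.3K27A than wild type. At a false discovery rate below 0.01, 61.3% of the authors' H3.3 regions at these peaks and 17.9% of the H3 regions were lower at day 6. Shares of all regions at that threshold are not given here, so these are not set beside a background. At a rate below 0.05 without chromosome 8 the H3 share was 22.4%.

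Leaving out 1 library gave 1918 to 1933 peaks, H3.3 at day 0 in 34.8% to 45.5%, H3 at day 0 in 18.7% to 30.4%, H3.3K27me3 at day 6 in 14.3% to 34.2%, H3K27me3 at day 6 in 10.9% to 12.3% and promoters in 12.7% to 14.8%. Genes higher and lower were 18 to 25 and 23 to 29 at day 3, 21 to 25 and 27 to 30 at day 6 in 2019, and 17 to 18 and 25 to 26 in 2020. For H3.3K27A against the knockout they were 0 to 0 and 0 to 0 at day 0 and 2 to 13 and 1 to 19 at day 6. Against wild type they were 0 to 0 and 0 to 1 for H3.3K27A, and 0 to 20 and 1 to 12 for the knockout. With the replicate block, 1 gene was higher in H3.3K27A and 4 in the knockout against wild type, and no other count left its tolerance. Replicates of the same number were not paired in the main fits. The correlations of replicate differences between groups were -0.0225 to 0.0890 in 2019 and -0.358 to 0.141 in 2020. The value of -0.358 was between the knockout and wild type at day 6, so replicate differences there were not unrelated. The cause of these shifts was not tested, and shares of all genes called in the fits without a library are not given here. Peaks at the enrichment floor limit every share given here.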

Other observations

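The 595 peaks with no H3K27me3 call of any strength, rather than only no filtered peak, kept an H3.3 overlap near that of the others. H3.3 peaks of both day 0 libraries overlapped 32.8% of them, against 35.9% of the 825 with a weaker call. H3 peaks at day 0 overlapped 8.57%, against 18.2%, and H3K27me3 peaks of both day 6 libraries overlapped 4 (0.672%), against 60 (7.27%). Chromosome 8, dense with peaks of every antibody, held 12 of the 595 (2.02%) and 78 of the 825 (9.45%). The shares without it are not given here. In the authors' deposited H3.3 table, 188 of 233 regions at the 595 peaks (80.7%) were lower at day 6, against 219 of 368 (59.5%) at the 825. For H3 the shares lower were 26.4% and 27.8%. These subsets were formed after the data were seen and the differences were not tested.

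Peaks with several genome copies differed from single-copy ones at day 6. H3.3 peaks of both day 6 libraries overlapped 4.05% of the 247 peaks with several copies, against 15.7% of the 1172 with 1 copy. Promoters were touched by 9.31% and 10.8%. Outside chromosome 8, which is dense with peaks of every antibody, lay 242 of the 247 and 1087 of the 1172. The overlap shares without chromosome 8 are not given here, and the difference was not tested. Tpt1, whose pseudogene copies make its count uncertain, had 931 and 1126 CPM at day 0 in 2019 and 31.7 to 70.5 CPM over the 11 libraries of 2020.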
